A study of Mus musculus with 2 samples.

Results

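Globin RNA was measured in G1E, an immortalised line of mouse red cell progenitors that is Gata1-minus by its labels. The members are the 10 alpha, beta and theta globin genes, found by gene identifier among 43346 annotated genes. They are the adult alpha genes Hba-a1 and Hba-a2, the embryonic alpha-like gene Hba-x, the theta genes Hbq1a and Hbq1b, the adult beta genes Hbb-bs and Hbb-bt, and the beta-like genes Hbb-y, Hbb-bh1 and Hbb-bh2. Poly(A)-selected RNA was sequenced in 2 libraries, labelled biological replicates 1 and 2, with 31645051 and 56983558 expected counts. Both belong to 1 group with no treatment named, labelled male and postnatal with an age of 0 day, and both cite the same source of cells. Only the replicate label says that they are separate samples, and separate cultures are not named, so their spread may be technical. With no second condition, the comparisons are among the globin genes and between the libraries.

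Haemoglobin is a tetramer of alpha-like and beta-like chains, each holding a haem group, and it carries oxygen in red cells. The alpha-like and beta-like genes lie in separate clusters, and each cluster holds embryonic genes used in yolk sac red cells and adult genes used later. Distant enhancers bound by GATA1, TAL1, LDB1, KLF1 and NFE2 drive the adult genes strongly as red cells mature. The alpha cluster spanned 24.5 kb of chromosome 11, chr11:32276400-32300873, on the plus strand of GRCm38. In order it held Hba-x, Hba-a1, Hbq1b, Hba-a2 and Hbq1a. The beta cluster spanned 40.7 kb of chromosome 7, chr7:103812524-103853216, on the minus strand, with the embryonic Hbb-y at its upstream end and Hbb-bs and then Hbb-bt at its downstream end.

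The copies within each adult pair are nearly the same gene, and their sequences set how well reads can be divided between them. In GENCODE release M21, Hba-a1 and Hba-a2 differ at 1 of 426 coding bases, written C381T, where Hba-a1 comes first and positions count from the first base of the start codon. Hbb-bs and Hbb-bt differ at 1 of 441 coding bases, written C417T with Hbb-bs first. The stretches below are exonic coding sequence of 55 bases around that single difference, which is in capitals, shown because 55 nt is the read length implied by the tables of replicate 2. They lie at chr11:32284313-32284367 and chr11:32297130-32297184 on the plus strand, and at chr7:103826668-103826722 and chr7:103812659-103812713 on the minus strand.
Hba-a1: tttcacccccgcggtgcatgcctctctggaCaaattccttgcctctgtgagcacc
Hba-a2: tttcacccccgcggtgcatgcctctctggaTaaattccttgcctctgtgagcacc
Hbb-bs: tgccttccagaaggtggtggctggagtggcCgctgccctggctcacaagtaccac
Hbb-bt: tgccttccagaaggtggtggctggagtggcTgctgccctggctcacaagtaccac
A coding read that does not cross that base fits both copies, so the remaining differences are in the untranslated regions and introns. Of all 55-base words in the transcripts of Hba-a2, 88.4% also occurred in another globin gene, against 71.4% for Hba-a1, 57.9% for Hbb-bt and 52.9% for Hbb-bs. The theta copies are less alike, at 93.8% identical aligned coding bases, and shared 26.9% of Hbq1b's words and 35.3% of Hbq1a's. Hba-x, Hbb-y, Hbb-bh1 and Hbb-bh2 shared none. Sums over each pair are therefore given first.

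Adult alpha globin made up most of the globin RNA in both libraries. Levels are in TPM, which corrects expected counts for length and library total, so they can be compared between genes. The alpha pair summed to 1253 TPM in replicate 1 and 3702 TPM in replicate 2, which was 89.9% and 96.2% of the TPM of the 10 genes. The adult beta pair summed to 135.75 TPM in replicate 1 and 133.92 TPM in replicate 2, a mean of 135 ± 1.29 TPM (SD, n = 2) and 9.74% and 3.48% of the globin TPM. Alpha was thus above beta in each library, by 9.23-fold in replicate 1 and 27.6-fold in replicate 2. On the log2 scale the mean ratio was 4.0 ± 1.12 (SD, n = 2). The theta pair summed to 4.57 and 11.44 TPM and the 4 embryonic or embryonic-like genes to 0.13 and 1.22 TPM. All 10 genes together took 0.139% of all TPM in replicate 1 and 0.385% in replicate 2. In bulk RNA, a difference in the number of cells with a transcript and a difference in RNA per cell cannot be told apart.

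A level of at least 1 TPM in each library was reached by 5 of the 10 genes. Among all annotated genes that share was 24.2%, and among protein-coding genes it was 42.5%. The 5 were Hba-a1, Hba-a2, Hbq1b, Hbb-bs and Hbb-bt. Replicate 2 alone had 6, through Hbb-bh1.

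**Figure D1:**
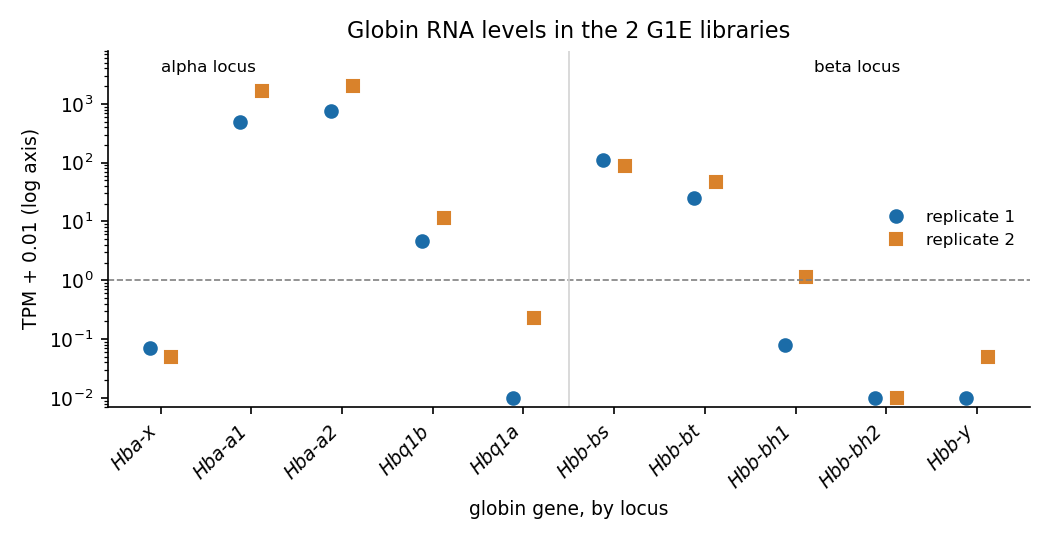
TPM + 0.01 on a log axis for each of the 10 globin genes, with circles for replicate 1, squares for replicate 2 and a dashed line at 1 TPM. The adult alpha genes stand highest, between 496 and 2019 TPM, the adult beta genes lie between 25.4 and 110 TPM, and genes at the bottom edge had no count.

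Hba-a2, which encodes an adult alpha chain, was listed at 757 and 2019 TPM in replicates 1 and 2, on 9177 and 45781 expected counts. Hba-a1, the other adult alpha gene, was at 496 and 1683 TPM, on 5341 and 33834 counts. The replicate 2 values are the higher ones for both genes, and the ranges of Hba-a1 and Hba-a2 overlap. Among 21474 protein-coding genes, Hba-a2 ranked 153 in replicate 1 and 55 in replicate 2, and Hba-a1 ranked 230 and 69. Hba-a1 was given 39.6% of the pair in replicate 1 and 45.5% in replicate 2. The authors' posterior SD of the count was 135.92 for Hba-a1 and 135.93 for Hba-a2 in replicate 1, and 182.51 for both in replicate 2. The SD thus was the same for both copies. For Hba-a1 the posterior mean was 477 TPM in replicate 1 with credibility bounds of 449 and 503, and 1618 TPM in replicate 2 with bounds of 1595 and 1642. The bounds of the libraries do not overlap. They surround the posterior mean and not the TPM, which lies above them in replicate 2.

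Hbb-bs, an adult beta gene, was at 110 and 87.1 TPM, on 1330 and 2102 counts. Hbb-bt, the other adult beta gene, was at 25.4 and 46.8 TPM, on 396 and 1377 counts. Hbb-bs was above Hbb-bt in both libraries and their ranges do not overlap, but they moved in opposite directions between libraries, Hbb-bs being lower in replicate 2 and Hbb-bt higher. Hbb-bt was given 18.7% of the beta pair in replicate 1 and 34.9% in replicate 2. The posterior SD of the count was the same for both copies, 21.38 in replicate 1 and 45.02 in replicate 2. Hbb-bs ranked 1281 and 1450 among protein-coding genes and Hbb-bt ranked 4310 and 2670.

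Theta globin genes encode an alpha-like chain of unsettled function. Hbq1b, between the adult alpha genes, was at 4.57 and 11.22 TPM, on 58 and 271 counts, and was higher in replicate 2. Its copy Hbq1a, downstream of Hba-a2, had no count in replicate 1 and 5.38 counts in replicate 2, or 0.22 TPM. The authors' posterior mean count of Hbq1a was 1.67 and 6.21, with an SD of 2.02 and 2.41, the same SD as for Hbq1b. Nearly all theta TPM therefore went to Hbq1b, and Hbq1a had 0% and 1.92% of the pair. By posterior means its share was 4.16% in replicate 1 and 2.53% in replicate 2, so the direction between libraries turned. In replicate 1 that share rests on a posterior mean of 0.19 TPM without an expected count.

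The embryonic genes were near or under the limit of detection. Hba-x, the embryonic zeta chain, had 1 count in each library, 0.06 and 0.04 TPM. Hbb-y, the embryonic epsilon chain, had no count in replicate 1 and 1 count in replicate 2. For this gene 3 counts, the limit of detection used here, would be 0.205 and 0.109 TPM. Hbb-bh2 had no count in either library, where 3 counts would be 0.314 TPM in replicate 1 and 0.170 TPM in replicate 2. Its exact 95% Poisson intervals reach up to 0.386 and 0.209 TPM. Hbb-bh1, an embryonic beta-like chain, was the exception, with 1 count in replicate 1 and 29 counts in replicate 2. These are 0.07 TPM, with an exact 95% Poisson interval up to 0.412, and 1.14 TPM, with an interval from 0.765 to 1.64. The intervals do not overlap, and they cover counting error only. The embryonic share of globin TPM was 0.00933% and 0.0317%, but by posterior means it was 0.0366% and 0.0367%. Posterior means lie above 0 even without a count, as for Hbb-bh2 at 0.10 and 0.05 TPM. Shares this small depend on such values, so the shares by posterior means are no check of the Hbb-bh1 difference. The posterior mean of Hbb-bh1 itself was 0.14 TPM in replicate 1, with credibility bounds of 0.0037 and 0.340. In replicate 2 it was 1.14 TPM, with bounds of 0.734 and 1.54. The bounds of the libraries do not overlap, but they rest on the same 1 and 29 counts. The 4 embryonic or embryonic-like genes share no read-length word with other globins in release M21. Their posterior SD of the count was 0 in both libraries, so no sign of reads divided with another gene was seen. The globin pseudogenes Hbb-bh3, Hbb-bh0 and Hba-ps4 were also at or under 3 counts, with 0, 2 and 2.06 counts in replicate 1 and 0, 0 and 1 count in replicate 2.

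In order of mean TPM the genes were Hba-a2, Hba-a1, Hbb-bs, Hbb-bt, Hbq1b, Hbb-bh1, Hbq1a, Hba-x, Hbb-y and Hbb-bh2. The ranges over libraries separated Hba-a1 from Hbb-bs, Hbb-bs from Hbb-bt, Hbb-bt from Hbq1b and Hbq1b from Hbb-bh1. They did not separate Hba-a2 from Hba-a1, or neighbours from Hbb-bh1 downward. By level in both libraries, the protein-coding genes most like the alpha sum were Rplp2 and Rpsa, which encode ribosomal proteins, and the mitochondrial mt-Nd4l, at distances of 0.48, 0.51 and 0.59 in log2(TPM + 1) over 2 libraries. Those most like the beta sum were Tal1, a haematopoietic transcription factor, Nadk2 and Mrpl34, at distances of 0.02, 0.07 and 0.08.

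The transcript tables placed much of the adult globin RNA on models annotated as retaining an intron. For Hba-a1, the retained-intron model Hba-a1-202 was at 492 and 1654 TPM, 99.2% and 98.3% of the gene. The protein-coding model Hba-a1-201 was at 4.05 and 28.49 TPM. For Hba-a2 the division was the reverse, with 100% in both libraries on the protein-coding model Hba-a2-201 and no count on its retained-intron model Hba-a2-202. For Hbb-bs, the retained-intron model Hbb-bs-202 was at 109 and 73.02 TPM, 99.2% and 83.8% of the gene. The protein-coding Hbb-bs-201 was at 0.94 and 14.12 TPM. Hbb-bt has 1 model, which is protein-coding. For Hbq1b the protein-coding model took 87.2% and 81.0%.

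These models share most of their sequence, so the assignment is not a direct measure of unspliced RNA. Of the 459 distinct words of 36 bases in Hba-a1-202, where 36 nt is the read length implied for replicate 1, 348 also occur in Hba-a1-201 and 423 in a transcript of Hba-a2. Only 111 occur in neither Hba-a1-201 nor Hba-a2-201, and 36 occur in no transcript of Hba-a2. The annotated ends differ as well. Hba-a1-201 begins 161 bases upstream of the RefSeq start of the gene, and Hba-a2-201 begins 3 bases upstream of its own. Hbb-bs-202 had 549 nt in the authors' tables and 344 nt in release M21, and Hbb-bs-201 had 778 and 628 nt, so the models differ. The lengths of Hbb-bh1-201, Hbb-bh2-201 and Hbb-y-201 also differed between the 2 sources. Shared words were counted on the M21 sequences, so for these genes they may not hold for the models that the authors used. Whether introns remained in these RNAs was not tested.

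**Figure D2:**
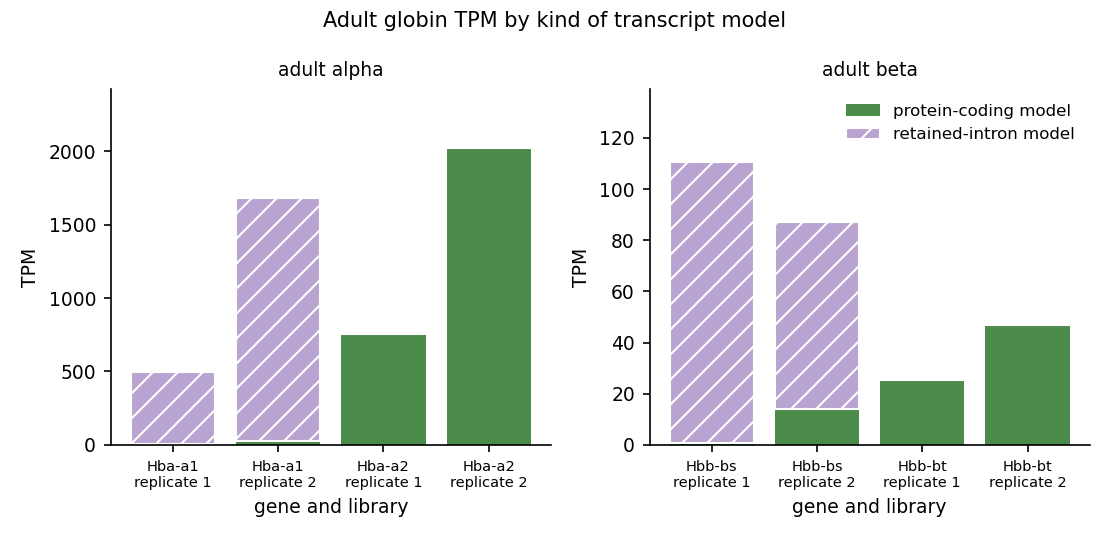
TPM of each adult globin gene in each library, as bars from 0 split into protein-coding models (solid) and retained-intron models (hatched). Hba-a1 and Hbb-bs are mostly hatched, Hba-a2 and Hbb-bt wholly solid, and the hatched part of Hbb-bs is the only one that is lower in replicate 2.

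The beta level and the alpha to beta ratio changed when retained-intron models were left out. That setting drops the counts on those models and does not reassign them. For beta it dropped 1314 and 1639 counts and kept 412 and 1840 in replicates 1 and 2. Expected counts over all models gave alpha over beta at 3.07 and 4.52 on the log2 scale. With protein-coding models only, an alternative chosen after seeing the data, the alpha pair stood at 761 and 2048 TPM and the beta pair at 26.31 and 60.91 TPM. Both pairs were then higher in replicate 2. Alpha over beta was 4.85 in replicate 1 and 5.07 in replicate 2 on the log2 scale, 4.96 ± 0.15 (SD, n = 2), so the libraries were closer than with all models. The retained-intron part of the beta pair, which is Hbb-bs-202, went the other way, from 109 TPM in replicate 1 to 73.02 TPM in replicate 2. The order within the pairs also turned. Hbb-bt held 96.4% and 76.8% of the protein-coding beta TPM, and Hba-a1 held 0.532% and 1.39% of the protein-coding alpha TPM.

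**Figure D3:**
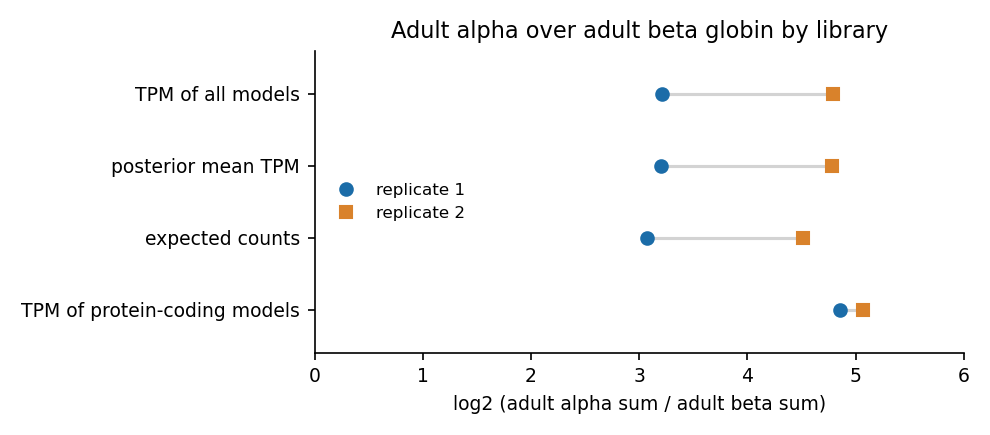
Log2 ratio of summed adult alpha to summed adult beta globin in replicate 1 (circles) and replicate 2 (squares) for 4 ways of measuring it. With all transcript models the libraries lie at 3.21 and 4.79, and with protein-coding models only at 4.85 and 5.07.

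The libraries were compared on counts scaled by TMM, a trimmed mean normalisation, with a gene called apart at 2-fold when it had at least 50 counts in total. As 1 library stands against 1, no p-value was computed. The alpha pair was 2.94-fold higher in replicate 2, a log2 ratio of 1.55 with a 95% counting interval from 1.53 to 1.58, and lay above 92.0% of 12414 tested genes. The beta pair had a log2 ratio of 0.11, interval 0.03 to 0.19, above 54.0% of tested genes, and its direction turned to -0.019 as a ratio of TPM. With protein-coding models only, the beta ratio was 1.26 and the alpha ratio 1.43. The theta pair had a log2 ratio of 1.34, interval 0.94 to 1.78.

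Of the 10 genes, 5 had enough counts, and 3 of these were at least 2-fold higher in replicate 2, against 16.5% of all tested genes. They were Hba-a1 at 1.76, Hba-a2 at 1.42 and Hbq1b at 1.32 on the log2 scale. None of the 5 was 2-fold lower, against 13.1% of tested genes, and 29.6% of tested genes were apart either way. Hbb-bt was at 0.90 and Hbb-bs at -0.24. Over 7 ways of scaling, the log2 ratio stayed between 1.76 and 2.07 for Hba-a1, 1.41 and 1.72 for Hba-a2, and 1.13 and 1.59 for Hbq1b. Hbb-bt ranged from 0.86 to 1.15 and so crossed 2-fold under 3 of them, and Hbb-bs from -0.34 to 0.01. Among all tested genes, 2049 were higher and 1625 lower in replicate 2. The split was 2747 to 1269 with DESeq2 size factors, 2777 to 1261 with TMM factors from all genes, and 1201 to 1616 after subtracting a trend on GC content. The median log2 ratio of tested genes was 0.03 with TMM and 0.27 with DESeq2 size factors. A library factor shifts the alpha pair and that median alike. The alpha pair is therefore at 1.53 relative to the median under both by construction, which is no check of the scaling.

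**Figure D4:**
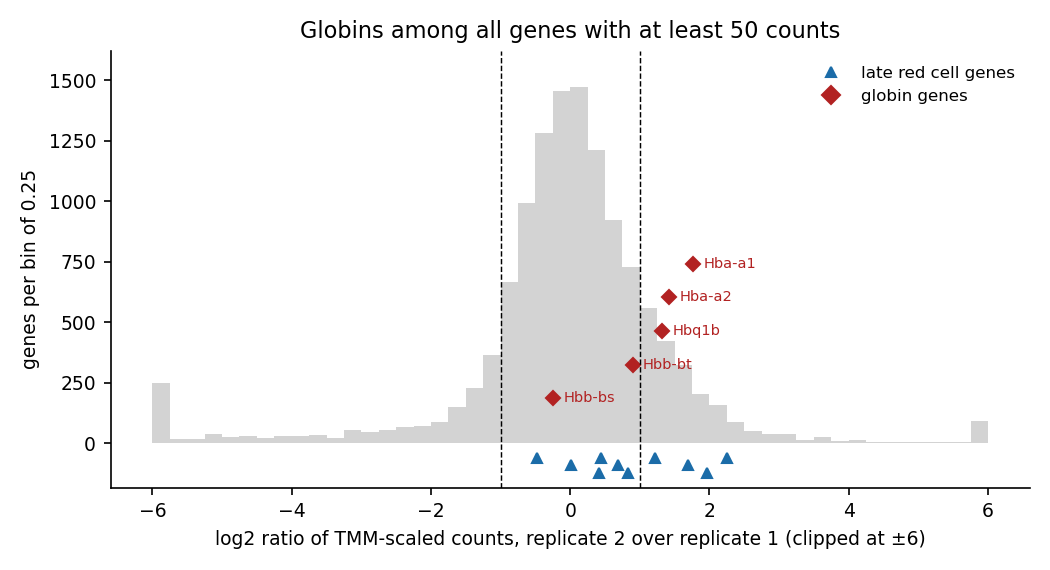
Histogram of the log2 ratio of TMM-scaled counts, replicate 2 over replicate 1, for 12414 genes with at least 50 counts, in bins of 0.25 with values beyond 6 drawn at 6. Diamonds, at arbitrary heights, mark the 5 globin genes and triangles the 10 tested late red cell genes, and dashed lines mark 2-fold. Hba-a1, Hba-a2 and Hbq1b lie beyond the right line and Hbb-bs and Hbb-bt between the lines.

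Genes of late red cells were set beside the globins. Of 10 tested, 4 were at least 2-fold higher in replicate 2 and 0 lower, against 16.5% higher and 13.1% lower among all tested genes. The median log2 ratio of the 10 was 0.76, against 0.03 for all tested genes. Among the 4, named after their values were seen, were Tmod1 at 1.96, Alas2, the erythroid enzyme of the first step of haem synthesis, at 1.70, and Slc4a1, the anion exchanger, at 1.21. With TPM ratios, 2 of the 10 passed, 0 were lower and the median was 0.14, and with TPM rescaled over protein-coding genes the median was 0.30. Alas2 was at 4.21 and 11.37 TPM, below Hbb-bt in both libraries. Car2 and Car1, carbonic anhydrases, led the list at 2102 and 1785 TPM and at 359 and 635 TPM. Ank1, of the membrane skeleton, was at 54.8 ± 12.5 TPM, and Bpgm at 17.5 ± 2.55 TPM (SD, n = 2 for both). Trim58 had no count.

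Regulators known to act on globin genes were present throughout. Each of the 20 listed reached 1 TPM in both libraries, against 42.5% of all protein-coding genes. Gata2, Zfpm1, Ldb1, Nfe2 and Myb had the highest mean TPM. Their log2 ratios, replicate 2 over replicate 1, ran from -0.62 for Zfpm1 to -1.32 for Nfe2. In the list, 4 were at least 2-fold lower (Nfe2, Bcl11a, Myb and Ldb1) and 1 was higher, Bach1 at 1.08. Among all tested genes 13.1% were lower and 16.5% higher by that much. Bcl11a and Bach1 were named after their values were seen. With DESeq2 size factors 1 was lower and 1 higher, with TPM ratios 6 were lower and 0 higher, and after the GC trend 3 were lower and 0 higher, so these counts depend on the scaling. Gata1 RNA was itself listed at 88.2 and 61.4 TPM, and no label names the disrupted stretch (this gene was named after its values were seen).

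For haem supply, 12 of 14 measured genes reached 1 TPM in both libraries, against 42.5% of all protein-coding genes. Cpox, Fech, Alad and Urod, enzymes of haem synthesis, led with means from 370 TPM for Cpox to 161 TPM for Urod. Alas2 was low beside them. Of 12 tested, 2 were 2-fold higher in replicate 2, Alas2 at 1.70 and Tfrc, the transferrin receptor, at 2.28 and named after its value was seen, and 0 were lower. Of all tested genes 16.5% were higher by that much, so the share is near the background, and after the GC trend 1 of the 12 was higher. The haemoglobin and haem scavengers Hp and Hpx were under 1 TPM.

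Markers of the labelled cell type were present, with 8 of 8 erythroid progenitor genes reaching 1 TPM in both libraries. The share of all protein-coding genes was 42.5%. Macrophage markers summed to 16.7 TPM in replicate 1 and 23.6 TPM in replicate 2, with 2 of 5 at 1 TPM or more in both. Among them Lyz2 was higher in replicate 2, at 3.20 and 15.65 TPM, and Cd68 lower, at 11.79 and 5.76 TPM, while the defining receptor Csf1r was at 0.10 and 0.03 TPM. No lymphoid (0 of 5), stromal (0 of 4), endothelial (0 of 3) or yolk sac and liver marker (0 of 4) reached 1 TPM in both libraries. Their sums were 3.46 and 0.28, 1.12 and 0.04, 1.33 and 0.43, and 0.39 and 0.16 TPM, each lower in replicate 2. The implied read lengths also differed, at 36 and 55 nt, and the part of these differences in the globin ratios was not tested.

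The surroundings of the clusters differed. Within 100 kb of the alpha genes, 4 of 7 other genes reached 1 TPM in both libraries, against 24.2% of all annotated genes. Of the protein-coding ones, 4 of 6 did, against 42.5% of all protein-coding genes. Nprl3, whose introns hold the main alpha globin enhancer, was at 67.9 and 68.45 TPM, a log2 ratio of 0.07. Mpg, a DNA repair enzyme, was at 15.2 and 16.4 TPM and Il9r, a cytokine receptor, at 11.3 and 9.74 TPM. Snrnp25, a minor spliceosome protein, was at 44.1 and 88.7 TPM, a log2 ratio of 1.04. Of these 4, Snrnp25 alone was called apart. Within 100 kb of the beta genes, 1 of 16 other genes reached 1 TPM in both libraries, the pseudogene Dnajc19-ps at 1.80 and 2.09 TPM. The 12 protein-coding genes that flank the beta cluster are all olfactory receptor genes. Of these 12, 0 reached 1 TPM in both libraries and 9 had no count in either.

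**Figure D5:**
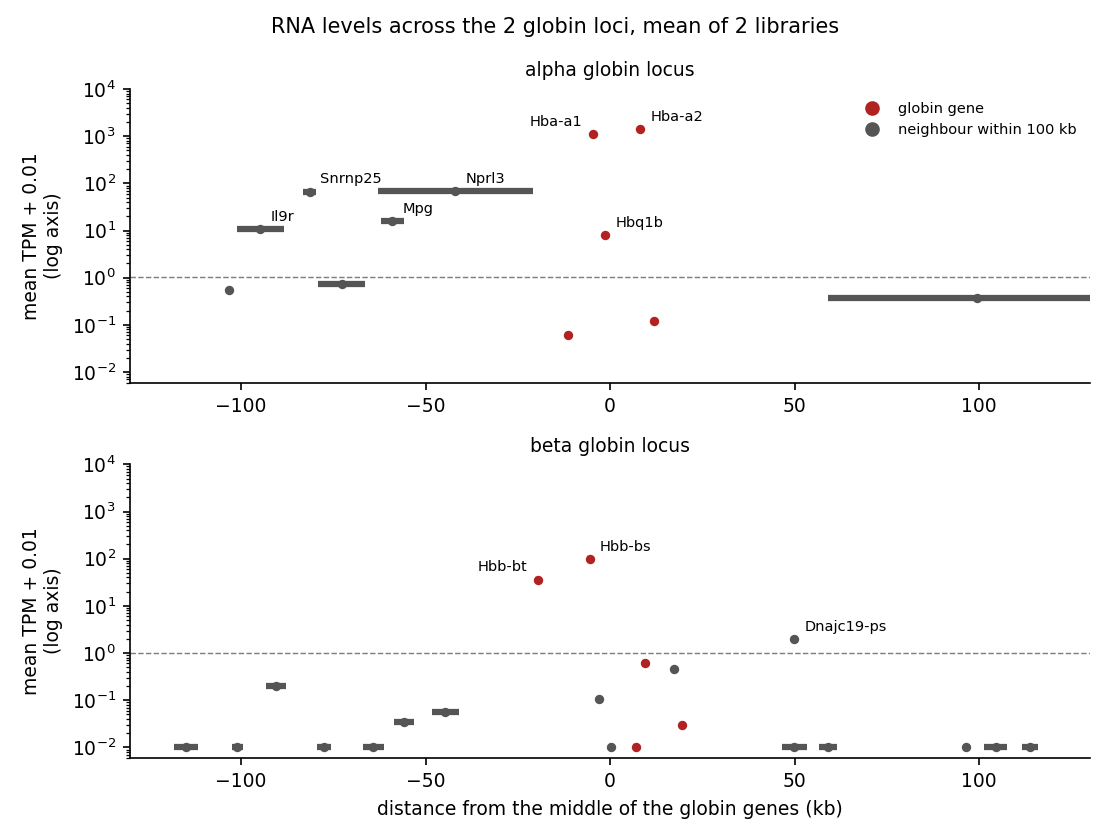
Mean TPM + 0.01 of the 2 libraries on a log axis against distance in kb from the middle of each globin cluster, with globin genes in red, other genes in grey, bars for gene spans and a dashed line at 1 TPM. On the alpha side 4 neighbours lie above the line, all to the left of the globin genes, and on the beta side 1 does.

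Promoter sequence was set beside the levels because genes at the top and the bottom of the order carry the same short motifs. RefSeq (GRCm38.p6) promoters matched 9 of the 10 genes, and the 250 bases before each RefSeq start were searched on both strands. The motifs were CACCC (or GGGTG), bound by Krüppel-like factors such as KLF1, CCAAT (or ATTGG), bound by NF-Y, and GATAA (or TTATC), bound by GATA factors. Of 27025 promoters of that length, 51.3% held CACCC, 34.5% CCAAT and 23.0% GATAA. The windows below, free of annotated exons, are the highest alpha gene, an adult beta gene, the theta gene and an embryonic gene listed at 0 and 0.04 TPM, with matches in capitals. They lie at chr11:32296339-32296488 for Hba-a2 and chr11:32286814-32286963 for Hbq1b on the plus strand, and at chr7:103813997-103814146 for Hbb-bt and chr7:103853217-103853366 for Hbb-y on the minus strand.
Hba-a2: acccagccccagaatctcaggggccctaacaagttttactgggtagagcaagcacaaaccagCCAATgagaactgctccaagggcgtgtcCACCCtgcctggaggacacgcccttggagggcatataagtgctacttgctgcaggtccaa
Hbb-bt: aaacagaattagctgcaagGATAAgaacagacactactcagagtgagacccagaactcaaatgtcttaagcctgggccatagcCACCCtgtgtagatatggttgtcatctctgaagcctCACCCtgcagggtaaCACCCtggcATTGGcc
Hbq1b: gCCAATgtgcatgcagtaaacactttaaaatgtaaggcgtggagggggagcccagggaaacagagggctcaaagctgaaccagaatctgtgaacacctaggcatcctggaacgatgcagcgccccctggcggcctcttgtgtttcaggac
Hbb-y: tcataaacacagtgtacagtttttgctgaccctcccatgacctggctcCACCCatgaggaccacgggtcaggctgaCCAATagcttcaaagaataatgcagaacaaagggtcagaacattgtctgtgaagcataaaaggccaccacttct
All 3 motifs were found in the 250 bases of Hba-a1, Hba-a2, Hbb-bs, Hbb-bt and also Hbb-y. The share of all promoters that hold all 3 was not computed. The windows shown are shorter than the 250 bases. They leave out GATAA at 185 bases in Hba-a2 and at 162 bases in Hbb-y, among other matches. In Hba-a2 CCAAT began 91 bases and the nearer CACCC 63 bases before the start, and in Hbb-y CACCC began 111 and CCAAT 83 bases before it. Hbb-bt held 3 CACCC matches, at 140, 104 and 89 bases. Hbq1b and Hbq1a held CCAAT alone, at 149 bases, Hba-x held CACCC and GATAA, and Hbb-bh2 held GATAA. The promoters of Hba-a1 and Hba-a2 had 247 identical aligned bases with 0 mismatches and a 3-base offset of the starts. Those of Hbq1a and Hbq1b were 95.6% identical although 1 was given nearly all theta counts, and those of Hbb-bs and Hbb-bt were 68.4% identical. A match describes the letters in the window and shows no binding.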

How the data were processed

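The authors deposited a gene table and a transcript table for each of 2 libraries, per the labels on assembly mm10 with gene annotation M4 and from transcriptome alignments. Which aligner, quantifier and strand setting were used is not given in the sources used here. Expected counts were deposited without normalisation; TPM and FPKM were deposited per effective length and per library. The deposited signal columns are posterior mean TPM with credibility bounds of unstated level, and the posterior SD is a deposited score. The deposited percent column is each transcript's share of its gene's TPM. TPM also covers 26345 entries that name no gene, left out of library sizes and tests, with 0.0363% and 0.00942% of the counts. Protein-coding genes took 84.4% of TPM in replicate 1 and 75.1% in replicate 2.

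Gene names and positions came from GENCODE M21 (42462 identifiers matched, 884 did not; Ahsp was not analysed here), promoters from RefSeq. The depth was 31645051 and 56983558 counts; 1 count of a 1 kb gene was 0.0428 and 0.0221 TPM. Counts were rounded and scaled with edgeR 4.0.16 (expression filter, then TMM) in R 4.3.3, and 0.5 was added before log2 ratios. The call was 2-fold at 50 counts or more, and steps were tested on simulated data. The simulation changed far fewer genes than were apart here, so it tests the steps and not these calls. Ratios of TPM used a pseudocount of 1, except alpha over beta, which used none. Intervals are exact at 95% and cover counting error only. Alternatives were DESeq2 1.42.0 size factors, total counts, TMM without the filter, TPM scalings, a lowess trend on GC content (span 0.3), posterior means, counts, thresholds, single libraries and protein-coding models only. Python 3.11.15 was used with Biopython 1.88, matplotlib 3.10.9, statsmodels 0.14.6, scipy 1.17.1, pandas 2.3.3 and numpy 2.4.6.

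The genes named are the 10 globins, in each list the members under 1 TPM and the 5 of highest mean TPM, neighbours at 1 TPM or more, and the 3 protein-coding genes nearest each adult sum; others are said to be chosen after their values were seen. The members and lists were chosen with earlier results of these data known. Values of some list members are not reported here.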

Additional observations from a re-analysis of the deposited data

How the results depend on the processing

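Apart from single libraries and the gene lists, 38 recomputed values stayed within the spread or 1.5 times the count, 17 moved and 1 changed sign, the adult beta ratio between libraries at -0.019 as a TPM ratio. That ratio was 0.35 with DESeq2 size factors, 0.24 after the GC trend, 0.36 with TMM factors from all genes and 1.26 with protein-coding models only. The alpha ratio was 1.80 with DESeq2 size factors, 1.61 with total counts, 1.73 with TPM rescaled over protein-coding genes, 1.86 after the GC trend, 1.80 with TMM factors from all genes and 1.43 with protein-coding models only. With those models the mean share of Hba-a1 in its pair was 0.962% and of Hbb-bt in its pair 86.6%. Protein-coding models and TMM factors from all genes were chosen after seeing the data. Posterior means gave a mean embryonic share of 0.0367% and a mean Hbq1a share of 3.34%, and counts a theta share of 0.343%. Without a count filter, 6 globins were apart by 2-fold. Within 50 kb, 3 neighbours reached 1 TPM. Beyond these settings' own construction, the cause was not tested. With 2 libraries, a single one cannot leave their SD, so its values, given in the report, are no check of stability. Hbq1a, Hba-x, Hbb-y, Hbb-bh1 and Hbb-bh2 had too few counts for a ratio. No paired analysis was possible because there was 1 group.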

Other observations

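Other members of the globin family were not above 1 TPM in these cells. Cygb, cytoglobin, was at 0.97 and 0.06 TPM in replicates 1 and 2. Adgb, androglobin, was at 0.17 and 0.01 TPM, Ngb, neuroglobin, at 0.05 and 0.04 TPM, and Mb, myoglobin of muscle, at 0.05 and 0 TPM. Among them, Cygb alone had enough counts for a ratio, 52 and 6.52, and was lower in replicate 2 with a log2 ratio of -3.67. As a ratio of TPM + 1 it was at -0.89, and at -0.99 with TPM rescaled over protein-coding genes. At 0.97 TPM in replicate 1, the added 1 keeps the first of these within 2-fold whatever replicate 2 held. It also pulls the second towards no difference, so neither is a check of the count ratio.

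Hbb-bs-201, the protein-coding model of Hbb-bs, differed most between libraries among globin models with at least 10 counts in either, from 16.28 to 463 counts, a log2 ratio of 3.92. Hbb-bs-202 had 1314 and 1639 counts and a ratio of -0.58. Hba-a1-201 was at 2.82 and Hba-a1-202 at 1.74, so in both genes the protein-coding model had the higher ratio of the 2 models. In Hbq1b the retained-intron model had the higher one, 1.82 against 1.19.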
